A study of Mus musculus with 6 samples.

Results

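The 10 genes described here encode the entry of glucose into glycolysis: the glucose transporters Slc2a1 and Slc2a6, the hexokinases Hk1, Hk2 and Hk3, the phosphofructokinases Pfkl, Pfkm and Pfkp, and Pfkfb3 and Pfkfb4, whose products make and break down fructose 2,6-bisphosphate. They were taken by gene symbol from the 54532 genes listed for each library, and all 10 passed the filter on low values (a mean of at least 1 FPKM, fragments divided by exon length in kilobases and by library depth), as 10540 genes did. RNA-seq libraries, 6 in all, were made from immortalized bone marrow-derived macrophages (iBMDMs), a mouse line made by retroviral transfer of the v-raf and v-myc oncogenes. Of these, 3 libraries came from cells with a lentiviral control shRNA (Control), 3 came from cells with a lentiviral shRNA against PGAM5 (PGAM5 KD), and both groups received LPS at 100 ng/ml, 4 hours before RNA was taken. No library of untreated cells was analysed here, each group carried 1 shRNA, and the sources do not say whether replicates were separate infections or cultures, so p-values measure the spread between these libraries, which may be technical. PGAM5 is a mitochondrial phosphatase that acts on the fission factor Drp1, and the comparison asks how its loss changes macrophage gene expression during the response to LPS.

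Glucose enters macrophages through facilitative transporters and is trapped inside the cell when a hexokinase converts it to glucose 6-phosphate. Phosphofructokinase then commits the sugar to glycolysis, and its strongest allosteric activator is fructose 2,6-bisphosphate, which the bifunctional PFKFB enzymes make and remove. Macrophages that sense LPS are known for a rapid turn to glycolysis, and the transcription factor HIF-1 is known to drive many of these genes.

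The libraries held between 18163464 and 24388917 fragments assigned to genes. The targeted gene Pgam5 was at 17.1, 13.0 and 13.4 FPKM in Control against 4.33, 5.75 and 4.53 FPKM in PGAM5 KD (limma log2 fold change -1.40, adjusted p = 0.000358). Of 10 macrophage markers 9 were expressed, with summed levels of 2987 to 3073 FPKM in Control and 2700.1 to 2729 FPKM in PGAM5 KD, while Mertk was at 0 in all 6 libraries. The summed levels were at most 2.23 FPKM for 11 neutrophil markers, 0.258 FPKM for 8 fibroblast markers and 0.211 FPKM for 8 lymphocyte markers, of which 7, 5 and 6 were at 0 in every library. In bulk RNA, a change in the number of cells of one kind and a change of RNA per cell cannot be told apart.

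The upstream sequences of 5 of the genes are shown first, because they carry the gene with the highest level (Slc2a1), the genes with the largest rises on their own fragments (Pfkl and Pfkp, the size for Pfkp being uncertain), the fall (Hk3), and Hk2, a known HIF-1 target, and because each has a single start in RefSeq. They are the 250 bases before the RefSeq start in GRCm38.p6, 5′ to 3′ on the strand of the gene, without bases that GENCODE M21 places in an exon of the same gene. For Pfkl the RefSeq start lies inside the gene as GENCODE M21 places it. Its stretch is upstream of the RefSeq start but downstream of the GENCODE start. Capitals mark ACGTG and GCGTG, the core letters of the hypoxia response element that HIF-1 binds, or their reverse complements CACGT and CACGC.
Slc2a1, chr4:119108495-119108710, plus strand: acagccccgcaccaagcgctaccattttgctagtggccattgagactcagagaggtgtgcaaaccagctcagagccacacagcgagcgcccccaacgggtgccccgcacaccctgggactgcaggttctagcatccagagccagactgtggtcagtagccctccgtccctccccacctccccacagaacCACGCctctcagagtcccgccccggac
Hk2, chr6:82774455-82774704, minus strand: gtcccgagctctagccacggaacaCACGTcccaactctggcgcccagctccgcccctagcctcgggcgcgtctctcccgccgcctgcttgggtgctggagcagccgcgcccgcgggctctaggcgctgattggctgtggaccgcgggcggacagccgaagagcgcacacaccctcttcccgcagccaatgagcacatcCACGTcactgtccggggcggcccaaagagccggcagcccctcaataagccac
Hk3, chr13:55021386-55021635, minus strand: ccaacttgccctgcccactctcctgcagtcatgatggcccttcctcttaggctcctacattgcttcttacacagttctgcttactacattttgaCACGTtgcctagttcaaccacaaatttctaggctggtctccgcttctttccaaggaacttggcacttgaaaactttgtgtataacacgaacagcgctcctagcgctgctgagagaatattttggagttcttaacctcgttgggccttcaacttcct
Pfkl, chr10:78009808-78010004, minus strand: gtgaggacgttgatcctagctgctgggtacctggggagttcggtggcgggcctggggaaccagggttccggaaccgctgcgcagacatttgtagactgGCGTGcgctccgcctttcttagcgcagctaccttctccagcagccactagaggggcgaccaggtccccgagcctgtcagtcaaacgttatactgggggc
Pfkp, chr13:6648778-6649021, minus strand: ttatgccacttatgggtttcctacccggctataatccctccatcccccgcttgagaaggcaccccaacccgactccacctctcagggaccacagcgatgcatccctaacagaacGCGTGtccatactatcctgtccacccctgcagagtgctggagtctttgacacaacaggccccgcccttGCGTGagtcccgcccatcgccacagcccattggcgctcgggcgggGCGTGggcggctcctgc
In Slc2a1 an ACGTG that begins 36 bases before the RefSeq start reaches into the exon and is not shown, and the match shown begins 61 bases before that start. The matches of Pfkp began 136, 68 and 23 bases before the start, those of Hk2 226 and 52 bases, that of Pfkl 99 bases and that of Hk3 156 bases. RefSeq gave 15 windows of 250 bases for the 10 genes, and 13 of these held ACGTG or GCGTG on either strand, against 38.6% of the 32851 windows of all genes. The windows are not independent: those of Pfkm that begin at chr15:98108221 and chr15:98108306 overlap and hold the same GCGTG. The 2 windows without a match belonged to Hk1 and Pfkm, genes with other windows that had one. Over all genes 16.6% of windows held ACGTG and 28.2% held GCGTG, and the GC content of the 15 windows had a median of 60.4% against 52.4% for all windows. The E-box CACGTG, which contains ACGTG, was in 2 of the 15 windows and in 6.02% of all windows, GGGCGG (the GC box) in 7 of 15 and in 32.7%, and the NF-kB consensus in 1 of 15 and in 7.25%. These matches are a description of the letters, and each of the 10 genes held one in at least 1 window, whether it was higher, lower or not past the test described next.

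Of the 10 genes 7 differed between the groups: Slc2a1, Hk1, Hk2, Pfkl, Pfkm and Pfkp were higher and Hk3 was lower in PGAM5 KD cells, while Slc2a6, Pfkfb3 and Pfkfb4 did not pass the test. The test was limma on log2(FPKM + 1) with Benjamini-Hochberg adjustment over all 10540 genes and a threshold of 0.05. In it 31.7% of all genes were called, 16.8% as higher and 14.9% as lower, against 7 of the 10 genes here, 6 as higher and 1 as lower. Over all genes 1771 were higher and 1575 lower. Quantile normalization of the same genes gave 1436 higher and 1721 lower, and the fit on TPM, in which the same filter and pseudocount let in 12631 genes, gave 1083 higher and 2268 lower. Of the 10 genes 6 were higher and 1 was lower under both. None of the 10 changed by more than 1 on the log2 scale, a size that 1.32% of all genes tested reached with an adjusted p under 0.05. Over the 10 genes the log2 fold change had a median of 0.33, against 0.013 over all genes tested. Libraries of the groups did not overlap for 8 of the 10 genes, which also held for 47.1% of all genes tested, and for each of the 8 the exact two-sided permutation p was 0.1, the smallest that 3 libraries against 3 allow.

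**Figure D1:**
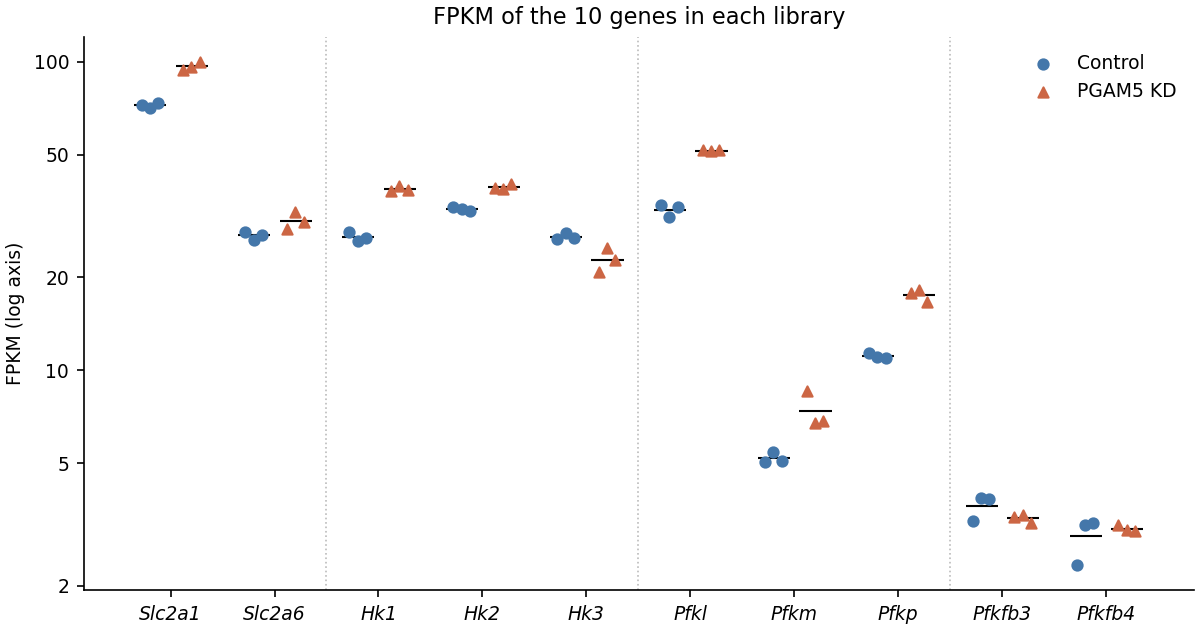
Level of each gene in every library, in FPKM on a log axis, with Control as circles, PGAM5 KD as triangles and a bar at the mean of each group of 3 libraries. The triangles of Slc2a1, Slc2a6, Hk1, Hk2, Pfkl, Pfkm and Pfkp lie above all circles, those of Hk3 lie below them, and those of Pfkfb3 and Pfkfb4 overlap with them.

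Slc2a1 (ENSMUSG00000028645, plus strand of GRCm38 chr4:119108711-119137983) encodes Glut1, the main glucose transporter of the macrophage surface. It was at 72.3, 70.9 and 73.3 FPKM in the Control libraries and at 94.1, 96.4 and 99.9 FPKM in the PGAM5 KD libraries, on 4603 to 8540 fragments. All PGAM5 KD libraries were higher, the mean was 34.1% above Control, and the log2 fold change was 0.42 (SE 0.03, adjusted p = 0.000227 from limma). Slc2a1 was the highest of the 10 genes in both groups, and 6.66% of all genes tested rose by more.

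Slc2a6 (ENSMUSG00000036067, minus strand of chr2:27021363-27027998) encodes Glut6, a transporter of myeloid cells that sits largely on lysosomes. Its levels were 28.0, 26.5 and 27.5 FPKM in Control and 28.7, 32.5 and 30.3 FPKM in PGAM5 KD. The groups did not overlap, but the gap between the highest Control and the lowest PGAM5 KD library was small, and the log2 fold change of 0.15 (SE 0.05, 95% interval 0.03 to 0.28) did not pass the threshold (adjusted p = 0.0673 from limma). Without PGAM5 KD replicate 1 it was 0.19 with an adjusted p of 0.034, and with voom on the recovered fragments 0.15 with an adjusted p of 0.0471, both past the threshold. On TPM it was 0.077 with an adjusted p of 0.31, and after adjustment for GC content and exon length 0.093 with an adjusted p of 0.191.

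Among the other glucose transporters of the Slc2a family, 3 of 10 were expressed at 1 FPKM or more. Slc2a3, which encodes the high-affinity Glut3, was at 10.3 ± 0.307 FPKM in Control and 11.3 ± 0.147 FPKM in PGAM5 KD (SD, n = 3), which did not pass the test (adjusted p = 0.0673 from limma). Slc2a9, which encodes a urate and hexose transporter, rose from 1.89 ± 0.172 to 2.62 ± 0.236 FPKM (SD, n = 3; log2 fold change 0.32, SE 0.09, adjusted p = 0.0367 from limma). Slc2a8 had 1.24 and 1.41 FPKM (adjusted p = 0.643 from limma), and Slc2a2, Slc2a7 and Slc2a12 were at 0 in all 6 libraries. Summed over Slc2a1 and Slc2a6, the level was 99.5 ± 1.81 FPKM in Control and 127.3 ± 3.96 FPKM in PGAM5 KD (SD, n = 3), of which Slc2a1 made up 72.5% ± 0.390 and 76.0% ± 1.10 (exact permutation p = 0.1 for the share).

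The 3 hexokinases moved apart. Hk1 (ENSMUSG00000037012, minus strand of chr10:62268855-62379908), the widely expressed isoform that docks on the outer mitochondrial membrane at VDAC, was at 28.0, 26.2 and 26.8 FPKM in Control and at 38.1, 39.4 and 38.3 FPKM in PGAM5 KD. Every PGAM5 KD library was well above every Control library, and the log2 fold change was 0.50 (SE 0.04, adjusted p = 0.000186 from limma). Hk2 (ENSMUSG00000000628, minus strand of chr6:82725025-82774454), the inducible isoform that also binds mitochondria, was at 33.8, 33.4 and 32.7 FPKM in Control and at 39.0, 38.6 and 40.2 FPKM in PGAM5 KD. Its rise of 0.23 on the log2 scale (SE 0.03, adjusted p = 0.00298 from limma) was smaller than that of Hk1. Hk3 (ENSMUSG00000025877, minus strand of chr13:55005985-55021385), the isoform of blood cells that lacks the mitochondrial docking helix, was at 26.7, 27.9 and 26.8 FPKM in Control and at 20.7, 24.9 and 22.9 FPKM in PGAM5 KD.

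All 3 PGAM5 KD libraries were below Control for Hk3, but they were spread over a wider range than those of Hk1 and Hk2, and the log2 fold change was -0.24 (SE 0.07, 95% interval -0.40 to -0.09, adjusted p = 0.0313 from limma). This call was near the threshold. It was kept without PGAM5 KD replicate 2 (adjusted p = 0.0153) and lost without any other single library: the adjusted p was 0.0672, 0.0927 and 0.0723 without Control replicates 1, 2 and 3, and 0.0529 and 0.0793 without PGAM5 KD replicates 1 and 3. The log2 fold change stayed negative throughout, between -0.30 and -0.18.

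Per summed exon length, the log2 ratio of Hk1 to Hk3 was -0.0073 in Control and 0.76 in PGAM5 KD, a difference of 0.77 or a factor of 1.70. Per longest coding transcript the Control ratio was 0.79 on the log2 scale, so the level of the ratio depends on the length used. Hk1 to Hk2 differed by 0.28 and Hk2 to Hk3 by 0.49 on the log2 scale. Each of these ratios was higher in every PGAM5 KD library (exact two-sided permutation p = 0.1, the smallest the design allows, adjusted to 0.164 over 18 shares and ratios). As a share of the summed FPKM of the 3 genes, Hk1 was 31.6%, 29.9% and 31.1% in Control and 39.0%, 38.3% and 37.8% in PGAM5 KD. The share of Hk3 was 30.2%, 31.9% and 31.0% in Control and 21.2%, 24.2% and 22.5% in PGAM5 KD. The share of Hk2 was 38.1% ± 0.137 in Control and 39.0% ± 1.30 in PGAM5 KD (SD, n = 3), which overlapped (exact permutation p = 0.4), but without PGAM5 KD replicate 2 the groups were apart by a mean of 1.66 percentage points. The summed hexokinase level was 87.4 ± 1.07 FPKM in Control and 100.7 ± 2.58 FPKM in PGAM5 KD (SD, n = 3), a ratio of 1.15.

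**Figure D2:**
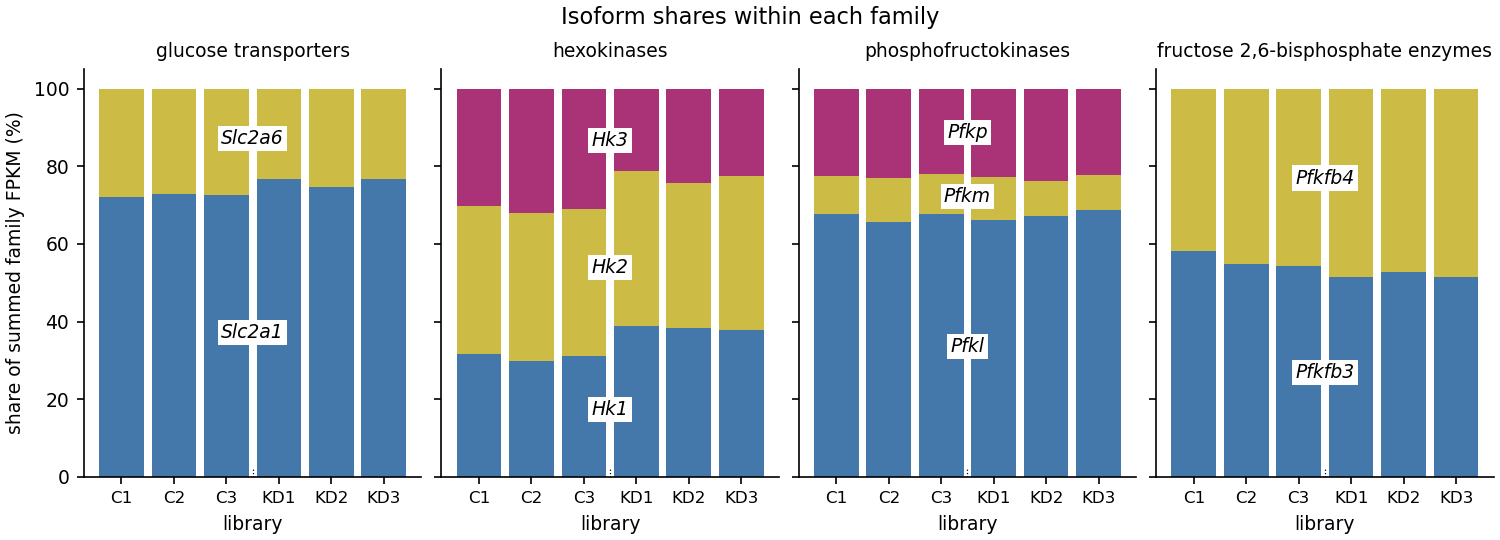
Share of each isoform in the summed FPKM of its family in percent, for Control replicates 1 to 3 (C1 to C3) and PGAM5 KD replicates 1 to 3 (KD1 to KD3), stacked to the whole family. Hk1 takes 29.9% to 31.6% in Control and 37.8% to 39.0% in PGAM5 KD, Hk3 gives way, and the phosphofructokinase shares overlap between the groups.

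Of the other glucose-phosphorylating enzymes, Adpgk, which encodes an ADP-dependent glucokinase, fell from 7.02 ± 0.301 to 5.95 ± 0.129 FPKM (SD, n = 3; log2 fold change -0.21, SE 0.05, adjusted p = 0.0271 from limma). Hkdc1, which encodes a hexokinase-like protein, was below 0.1 FPKM on average in both groups. Of the VDAC channels at which Hk1 and Hk2 dock, Vdac1 rose by 0.15 on the log2 scale (adjusted p = 0.0134 from limma), and the other 2 of the 3 did not pass the test.

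The phosphofructokinases rose together. Pfkl (ENSMUSG00000020277, minus strand of chr10:77986947-78010083), the liver-type subunit that is the main one in myeloid cells, was at 34.3, 31.3 and 33.8 FPKM in Control and at 51.7, 51.2 and 51.6 FPKM in PGAM5 KD. The PGAM5 KD libraries lay within 1 FPKM of each other and far above Control, with a log2 fold change of 0.62 (SE 0.04, adjusted p = 0.000111 from limma), and 3.11% of all genes tested rose by more. Pfkp (ENSMUSG00000021196, minus strand of chr13:6579768-6648777), the platelet-type subunit, was at 11.3, 11.0 and 11.0 FPKM in Control and at 17.8, 18.2 and 16.6 FPKM in PGAM5 KD. Its libraries did not overlap either, and the log2 fold change was 0.61 (SE 0.05, adjusted p = 0.000192 from limma). Pfkm (ENSMUSG00000033065, plus strand of chr15:98092589-98132451), the muscle-type subunit, was at 5.03, 5.42 and 5.09 FPKM in Control and at 8.57, 6.74 and 6.85 FPKM in PGAM5 KD. It rested on 305 to 629 fragments, and PGAM5 KD replicate 1 was higher than the other two. The log2 fold change of Pfkm was 0.43 (SE 0.09, adjusted p = 0.0121 from limma), and without that library it was 0.34.

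How far Pfkp rose is uncertain, since 748 bases of its exons (5.58%) lie over the end of Pitrm1 on the opposite strand, and whether the libraries kept strand is not given in the sources used here. Pitrm1, which encodes a mitochondrial peptidase, went the other way, from a mean of 28.4 to 24.8 FPKM (log2 fold change -0.19, adjusted p = 0.0145 from limma). Of the fragments on both genes, 52.2%, 52.0% and 52.8% were on Pfkp in Control and 66.0%, 67.2% and 65.9% in PGAM5 KD. With fragments of both genes summed in place of Pfkp, the log2 fold change was 0.30 (adjusted p = 0.00256 from limma). That sum holds all fragments of Pitrm1 as well, so it describes both genes together and not Pfkp. Pfkm shares 18 exon bases with Senp1 on the opposite strand, which was at 9.54 FPKM in Control and 7.44 FPKM in PGAM5 KD, and 341 bases with Gm26513, which held at most 8 fragments. The exons of Slc2a1, Hk1 and Hk3 share from 34 to 157 bases with Gm12868, Hk1os and Unc5a on the opposite strand, none of which held more than 18 fragments in a library.

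The share of each subunit within the family differed between the groups by less than the larger of the 2 SDs. Pfkl made up 67.0% ± 1.24 of the summed FPKM in Control and 67.4% ± 1.24 in PGAM5 KD, Pfkp 22.5% ± 0.536 and 22.9% ± 0.873, and Pfkm 10.5% ± 0.748 and 9.66% ± 1.15 (SD, n = 3; exact permutation p = 0.7, 0.6 and 0.3). The log2 ratio of Pfkl to Pfkp was 1.57 in Control and 1.56 in PGAM5 KD, and the difference had no stable direction when single libraries were left out. Without PGAM5 KD replicate 1 the share of Pfkm no longer overlapped, with a difference of -1.49 percentage points. A p that misses the threshold does not show that the mix was the same. The summed level of the 3 genes was 50.7, 47.8 and 49.9 FPKM in Control and 78.1, 76.1 and 75.0 FPKM in PGAM5 KD, a ratio of means of 1.55 and the largest of the 4 families.

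Pfkfb3 and Pfkfb4, the genes of the regulatory enzymes, did not pass the test. Pfkfb3 (ENSMUSG00000026773, minus strand of chr2:11471433-11554077), whose product strongly favours the making of fructose 2,6-bisphosphate, was at 3.25, 3.84 and 3.83 FPKM in Control and at 3.34, 3.40 and 3.20 FPKM in PGAM5 KD. The groups overlapped, and the log2 fold change was -0.10 (95% interval -0.29 to 0.08, adjusted p = 0.356 from limma). It was -0.16 without Control replicate 1, -0.19 on TPM and -0.045 after adjustment for GC content and exon length, and did not pass the threshold in any of these. Pfkfb4 (ENSMUSG00000025648, plus strand of chr9:108991778-109032228) was at 2.34, 3.16 and 3.20 FPKM in Control and at 3.15, 3.04 and 3.02 FPKM in PGAM5 KD, and its PGAM5 KD libraries lay within the range of Control. Its log2 fold change was 0.068 (95% interval -0.18 to 0.32, adjusted p = 0.659 from limma), and it turned to -0.040 without Control replicate 1, the lowest library for this gene. The share of Pfkfb3 in the sum of the pair was 55.8% ± 2.07 in Control and 51.9% ± 0.775 in PGAM5 KD (SD, n = 3; exact permutation p = 0.1), a direction that reversed with Pfkfb1 and Pfkfb2 in the sum. Both genes rested on 207 to 590 fragments, and the intervals leave room for changes of the size seen for Hk2 in Pfkfb4 and of a similar fall in Pfkfb3.

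Of the other genes that set fructose 2,6-bisphosphate, Pfkfb2 was at 1.48 FPKM in Control and 0.823 FPKM in PGAM5 KD (log2 fold change -0.44, SE 0.14, adjusted p = 0.0546 from limma). Tigar, whose product lowers fructose 2,6-bisphosphate, was at 13.6 and 13.9 FPKM (adjusted p = 0.761 from limma), above Pfkfb3 and Pfkfb4 in both groups. Of 5 genes of the phosphatases that oppose hexokinase and phosphofructokinase, G6pc3 was the one tested, at 13.1 and 12.3 FPKM (adjusted p = 0.376 from limma).

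**Figure D3:**
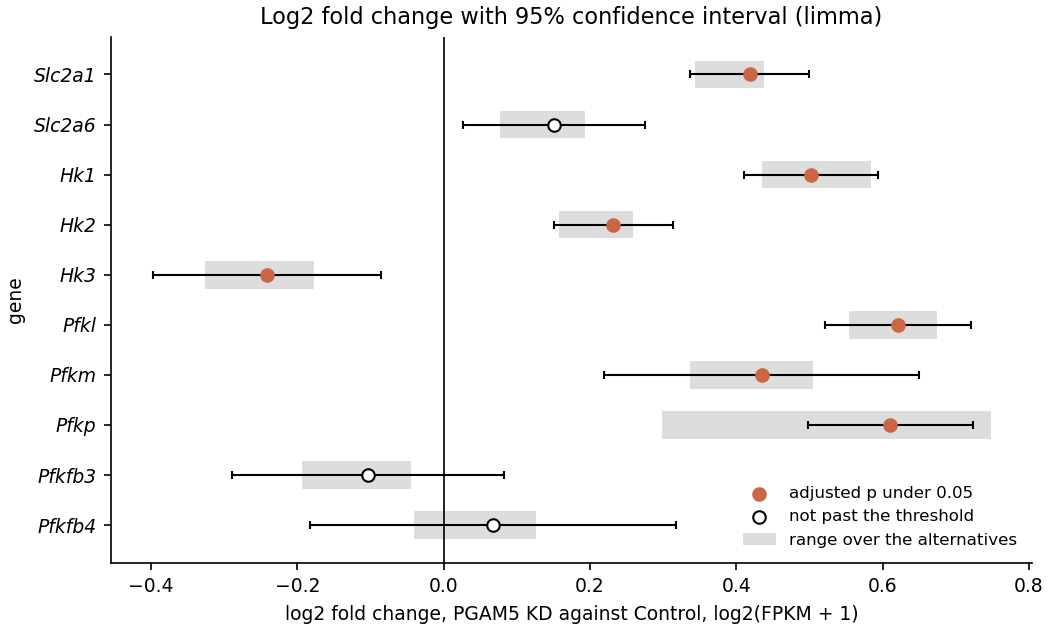
Log2 fold change of each gene, PGAM5 KD against Control on log2(FPKM + 1), with its 95% confidence interval from limma, filled where the adjusted p was under 0.05, and with the range over the alternative settings in grey. Pfkl at 0.62 and Pfkp at 0.61 lie highest, and Hk3 at -0.24 is the one filled point below 0. The grey range of Pfkp reaches down to 0.30, the value with Pitrm1 fragments summed in, and is otherwise 0.56 to 0.75.

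The order of the levels depended on the gene length by which fragments were divided. Per summed exon length, as deposited, the order in Control was Slc2a1 (72.2 FPKM), Hk2 (33.3), Pfkl (33.1), Slc2a6 (27.4), Hk3 (27.1), Hk1 (27.0), Pfkp (11.1), Pfkm (5.18), Pfkfb3 (3.64) and Pfkfb4 (2.90). Hk2 and Pfkl overlapped there, as did Slc2a6, Hk3 and Hk1, whereas the remaining neighbours were separate in all libraries. In PGAM5 KD, Pfkl (51.5 FPKM) stood apart above Hk2 (39.3) and Hk1 (38.6), which overlapped, and Slc2a6 (30.5) and Hk3 (22.8) followed, apart from each other in all libraries. The exons of Pfkp sum to 13401 bases against 4145 in its longest coding transcript, and those of Hk1 to 8532 against 4278, while Slc2a1 has 3506 against 3260. Per longest coding transcript Hk1 was at 53.8 and Hk2 at 36.0 fragments per kilobase at the same depth scaling in Control, so that Hk1 was the highest hexokinase, and Pfkp at 35.9 was level with Hk2. On that scale the share of Hk1 in the hexokinases was 44.5% in Control and 52.9% in PGAM5 KD, that of Hk2 29.8% and 29.2%, and that of Hk3 25.7% and 17.9%. The phosphofructokinase shares per transcript were 58.6% in both groups for Pfkl, 35.5% and 36.0% for Pfkp, and 5.94% and 5.44% for Pfkm. Slc2a1 stayed the highest and Pfkfb4 the lowest on both scales and in both groups.

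**Figure D4:**
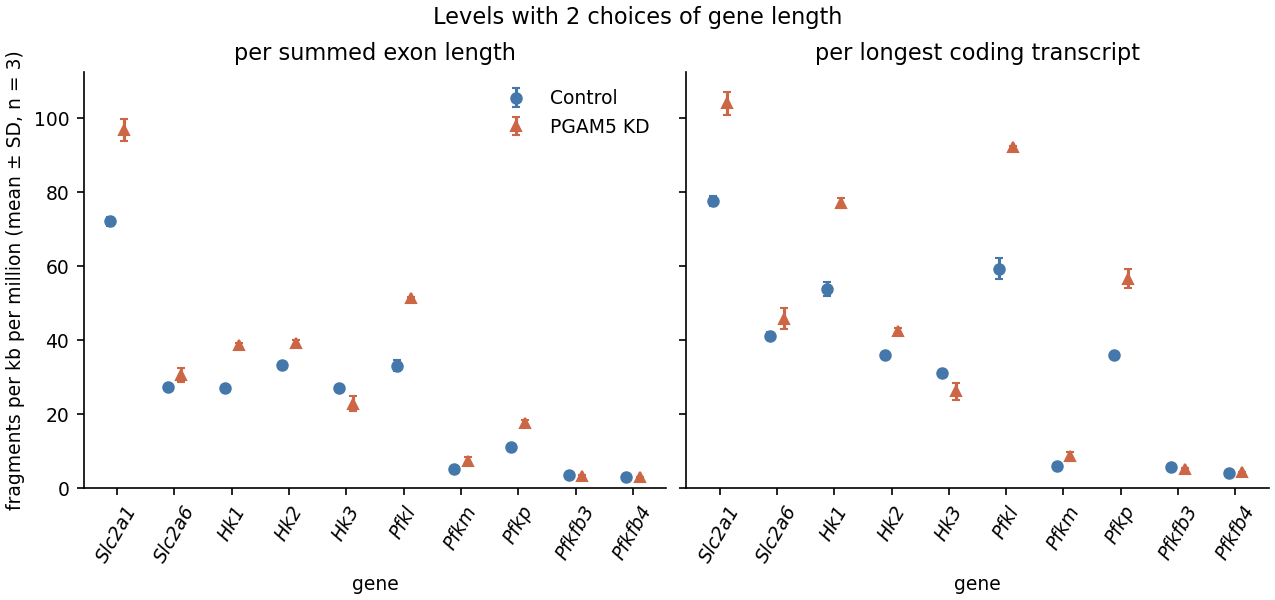
Level of each gene in fragments per kilobase, scaled to library depth (mean ± SD of 3 libraries), per summed exon length on the left and per longest coding transcript on the right, with Control as circles and PGAM5 KD as triangles. Hk1, Pfkl and Pfkp stand higher on the right, and Slc2a1 is the highest on both sides.

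Other genes of glucose use give the setting. The 67 genes of 9 lists took up 68 rows of the deposited tables, since Aldoa is listed under a pair of identifiers. Of these rows 48 were tested, and 18 were higher, 8 lower and 22 not called, with a median log2 fold change of 0.10, beside 16.8% higher and 14.9% lower among all genes tested. The 8 lower genes are a share near that of all genes, and the lists held 16 higher and 9 lower under quantile normalization and 14 and 10 on TPM, where more genes passed the filter. Downstream of phosphofructokinase and at phosphoglucose isomerase, 8 of 13 rows tested were higher and 2 were lower, with a median of 0.37 that was 0.20 under quantile normalization and 0.29 on TPM. Tpi1, the triosephosphate isomerase gene, rose from 309.7 ± 4.34 to 485 ± 15.3 FPKM (SD, n = 3; log2 fold change 0.65, SE 0.03, adjusted p = 2.7e-05 from limma), and Aldoc, an aldolase, rose by 0.64. Eno3, the muscle enolase, fell from 32.1 ± 0.575 to 19.8 ± 2.85 FPKM (SD, n = 3; log2 fold change -0.68, SE 0.09, adjusted p = 0.002 from limma). Gapdh, named after its values were seen, was at 27.5 ± 33.5 and 47.5 ± 35.3 FPKM (SD, n = 3), a spread that leaves its estimate uncertain. Single libraries ran from 7.37 to 66.1 FPKM in Control and from 7.41 to 73.9 FPKM in PGAM5 KD, far below Tpi1. The level of Gapdh is therefore uncertain too, and the cause was not tested.

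At the lactate end 2 of 3 genes tested rose: Slc16a3, the lactate exporter MCT4, from 59.7 to 103.6 FPKM (log2 fold change 0.79), and Ldha by 0.56. The median of the 3 was 0.56. For this list it was 0.31 under quantile normalization and 0.20 on TPM, a setting in which the filter let in more genes. Of 9 genes on the branches that leave glucose 6-phosphate, 3 were higher and 3 lower, with a median of 0.055 that turned to -0.022 on TPM. The genes that rose were Pgm1, a phosphoglucomutase, from 18.7 ± 1.86 to 34.9 ± 0.885 FPKM (SD, n = 3; log2 fold change 0.87, SE 0.07, adjusted p = 0.000212 from limma), the glycogen synthase gene Gys1, by 0.52, and Ugp2, whose product makes UDP-glucose for glycogen, by 0.30. The genes that fell were G6pdx and Pgd, dehydrogenases of the pentose phosphate pathway, each by 0.15 on the log2 scale, and H6pd, a like enzyme of the endoplasmic reticulum, which fell by 0.47. Ugp2, Pgd and G6pdx are named after their values were seen, to give all 6 genes called.

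Among 13 regulators of glucose use tested, 3 were higher and 2 lower, a share near the 31.7% of all genes called. Their median was 0.094, and it was 0.059 under quantile normalization and 0.023 on TPM. Egln1, the prolyl hydroxylase that marks HIF-1α for decay and is itself a HIF-1 target, rose from 10.6 ± 0.892 to 14.3 ± 0.199 FPKM (SD, n = 3; log2 fold change 0.40, SE 0.06, adjusted p = 0.0035 from limma). Myc fell from 44.7 ± 1.61 to 37.3 ± 1.63 FPKM (SD, n = 3; log2 fold change -0.25, adjusted p = 0.00648 from limma), and Mlxip, which encodes the glucose sensor MondoA, fell by 0.26 on the log2 scale. Mycn and Txnip are named after their values were seen, to give all genes called. Mycn, at a higher level than Myc, rose from 219.7 to 238.8 FPKM (log2 fold change 0.12, adjusted p = 0.0195 from limma), and Txnip rose by 0.21. Hif1a, named after its values were seen, was at 52.6 FPKM in Control and 56.9 FPKM in PGAM5 KD, which did not pass the test (adjusted p = 0.0925 from limma). The macrophage markers also moved: 4 of the 9 tested were higher and 3 lower, and their part in the changes of the 10 genes was not tested. The changes with the largest size were those of Fcgr1, from 4.34 to 14.1 FPKM (log2 fold change 1.51), Adgre1, from 7.93 to 15.1 FPKM (0.85), and Itgam, from 2.41 to 4.46 FPKM (0.68), while Csf1r, named after its values were seen as the largest fall, went from 231 to 148 FPKM (-0.64).

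**Figure D5:**
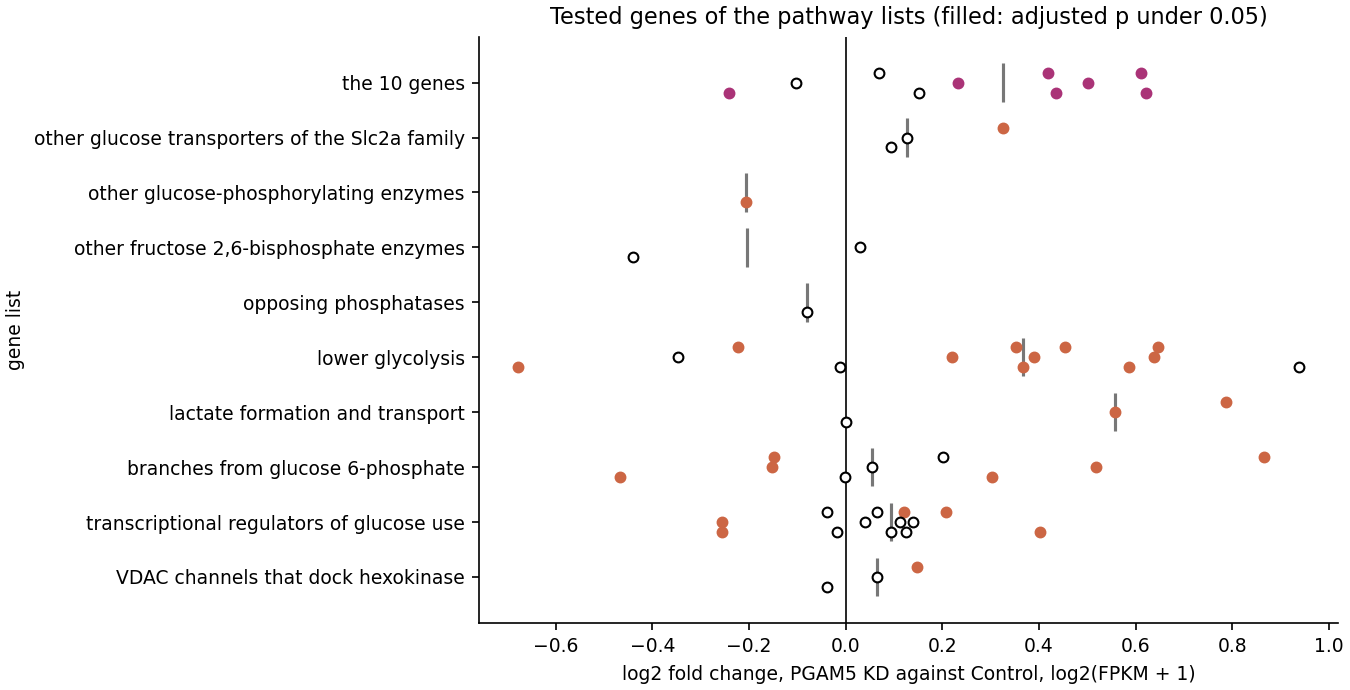
Log2 fold change of every tested gene of the 10 and of 9 further lists, PGAM5 KD against Control on log2(FPKM + 1), filled where the adjusted p from limma was under 0.05, with a grey bar at the median of each list. The medians are 0.33 for the 10 genes, 0.37 for lower glycolysis and 0.56 for lactate as deposited. The last 2 are 0.20 and 0.31 under quantile normalization, and 0.29 and 0.20 on TPM. The open point at 0.94 is Gapdh.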

How the data were processed

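The 6 deposited tables hold FPKM, made by the authors with HISAT2 2.0.5 and featureCounts 1.5.0-p3 as the submitters' processing notes name them. Gene symbols, coordinates and lengths came from GENCODE M21 (GRCm38), which held 54495 of the 54532 identifiers. FPKM times summed exon length gave whole fragments within 0.01 for 96.8% to 97.1% of values under 1000 fragments, from which depth was recovered. In the shallowest library, 1 fragment on 1 kb of exon was worth 0.0551 FPKM. FPKM was not scaled further, and it summed to 304393 to 304889 in Control and 317936 to 324298 in PGAM5 KD, which TPM evens out.

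The filter kept 10540 genes whose FPKM averaged 1 or more over the 6 libraries. Their log2(FPKM + 1) values went into limma 3.58.1 under R 4.3.3, with eBayes along the mean-variance trend, two-sided p-values adjusted by Benjamini-Hochberg over all genes tested, and no pairing. Fold changes on this scale understate changes of genes at low FPKM. Genes were called at an adjusted p-value under 0.05, and the study's fold threshold (an absolute log2 fold change above 1) was counted separately. Exact permutation tests were used for single genes, shares and ratios, whose p is at least 0.1. Shares and ratios used FPKM without a pseudocount. Similar transcripts were searched with blastn 2.17.0 (at least 85% identity over 200 bases), which found Pitrm1 for Pfkp alone. No 2 replicates agreed within sampling noise (chi-square per degree of freedom 5.04 to 8.88). The fit was tested on simulated data before use. Settings tried as alternatives were a pseudocount of 0.1, no filter, a filter at a mean of 5 FPKM, TPM, quantile normalization, median centring, no trend, a replicate block, leaving out each library, adjustment of each library for exon length and GC content, voom on recovered fragments and, added after seeing the data, length of the longest coding transcript.

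The genes and lists were chosen with earlier results of these data known. Named are all 10 genes, Pgam5, expressed genes of the small family lists, at most 3 called genes of each other list by size of change, overlapping genes, and genes marked as named after their values were seen, to which the genes under the filter (Mertk, Slc2a2, Slc2a7, Slc2a12, Hkdc1 and Pfkfb1) also belong.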

Additional observations from a re-analysis of the deposited data

How the results depend on the processing

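The rises of Slc2a1, Hk1, Hk2, Pfkl, Pfkm and Pfkp kept their direction and their call in each of the 17 alternatives run. In that order, log2 fold changes were 0.34 to 0.44, 0.44 to 0.58, 0.16 to 0.26, 0.55 to 0.67, 0.34 to 0.51 and 0.56 to 0.75. A further setting summed the fragments of Pfkp with those of Pitrm1 and gave 0.30, a value for both genes together and not for Pfkp. Hk3 kept its direction but lost its call when low genes were kept in the limma fit (no filter: -0.24, adjusted p = 0.0737) and with no mean-variance trend (-0.24, adjusted p = 0.0504), which left 0 of the 10 genes lower. Leaving out each library in turn, Hk3 ranged from -0.30 to -0.18 and the number of genes lower from 0 to 1. Slc2a6 gained a call with voom (0.15, adjusted p = 0.0471) and without PGAM5 KD replicate 1, and ranged from 0.11 to 0.19 over the libraries left out. Pfkfb4, not called in any setting, ranged from -0.040 to 0.13. The causes of these changes were not tested.

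No share could pass the exact test. The difference in share between the groups kept its sign in every alternative for Slc2a1, Slc2a6, Hk1, Hk3, Pfkm and Pfkfb4, but not for Hk2, Pfkl, Pfkp and Pfkfb3. That of Hk2 was -0.619 percentage points per longest coding transcript, and that of Pfkfb3 was 1.36 with all measured family members in the sum. The log2 ratio of Pfkl to Pfkp differed by 0.011 with 1 added to each FPKM and by -0.057 to 0.013 over the libraries left out, while the shares of Pfkl and Pfkp differed by -0.312 to 0.986 and -0.0449 to 0.817 percentage points, that of Pfkm by -1.49 to -0.408 and that of Hk2 by 0.479 to 1.66. Leaving out 1 library, the exact p cannot go below 0.2.

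Same-numbered replicates did not deviate together (correlations of -0.0197, 0.0161 and -0.0516). Whether they shared a culture or a day is not given, and such correlations cannot exclude it. With the replicate number as a block, 2652 genes were called (1440 higher, 1212 lower) against 3346 without it, and 6 of the 10 genes were higher and 1 lower as before, with a log2 fold change of 0.42 for Slc2a1 (adjusted p = 0.0027 from limma). Over all genes, no filter on low values gave 2590 calls, and with the fold threshold a pseudocount of 0.1 gave 261 and voom 283 against 139, while TPM, which changes the scaling along with the genes that pass the filter, gave 325 of 12631 genes. Pfkm, Pfkfb3 and Pfkfb4 rested on 207 to 629 fragments, the fewest of the 10, which limits how small a change could be detected.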
